A study of Mus musculus with 24 samples.

Results

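The 39 genes described here code for the enzymes and carriers of the tricarboxylic acid (TCA) cycle, of pyruvate entry into mitochondria and of the malate-aspartate shuttle. They were taken by symbol from a table of 39396 genes measured by RNA sequencing of mouse left ventricle. All 39 had a row, none was at 0, and all 39 passed the filter on low counts that left 17352 genes to test. The lowest count of any of them in any library was 173.

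The animals were DKO mice, which per the labels lost Rhot1 and Rhot2 in cardiomyocytes during embryonic life, and control mice whose alleles the labels do not name. Rhot1 and Rhot2 encode the Miro proteins, which tie mitochondria to molecular motors. The 4 groups were DKO labelled day 7, control labelled day 7, DKO labelled day 1 and control labelled day 1, with 6 libraries each. The labels give cardiomyocyte as the cell type, while RNA came from ventricular tissue. They name neither the Cre driver nor the strain, and nothing in them ties each library to its own animal. The p-values therefore reflect differences among the sequenced libraries, which may be partly technical.

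Several facts of the series bear on what follows. Total counts were 22345262 to 30453874 in DKO and 17334498 to 27272982 in control libraries labelled day 7, against 30318018 to 37967935 in DKO and 36145645 to 45806171 in control libraries labelled day 1. The age labels ran against the known order of heart development. In controls, all 8 genes known to be higher in the newborn heart were higher at labelled day 7 than at labelled day 1, and all 7 genes known to be higher in the later heart were lower. Rhot1 had a median of 129 CPM (read counts scaled to the size of the library) in DKO and 157 CPM in control libraries labelled day 7, and 118 CPM in DKO and 164 CPM in control libraries labelled day 1. Rhot2 was at 0 counts in all 24 libraries, and its deletion could not be checked. The markers of ventricular cardiomyocytes summed to 46196 to 65589 CPM over the 24 libraries. Y-linked transcripts were present in 2 of 6 libraries of each genotype labelled day 7 and in 6 of 6 of each genotype labelled day 1. The 6 atrial muscle markers summed to 36.6 to 60.5 CPM in DKO and 52.6 to 464 CPM in control libraries labelled day 1, and to 202 to 1516 CPM in DKO and 218 to 396 CPM in control libraries labelled day 7. The part of atrial tissue in the genotype results at labelled day 1 was addressed only by the fits named beside them. At labelled day 7 no fit used the atrial markers, and their part in the genotype results there was not tested. Myl7, one of these markers, reached 1043 CPM in DKO library m1124 labelled day 7, where the group median was 195 CPM. That library was the lowest of its group for several members, Ogdh, Mdh1 and Mdh2 among them, though not for Cs or Idh3a.

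As background, pyruvate enters mitochondria through the carrier MPC1-MPC2 and is turned into acetyl-CoA by the pyruvate dehydrogenase complex, which PDK kinases switch off and PDP phosphatases switch on. The cycle oxidises acetyl-CoA to carbon dioxide and passes electrons to the respiratory chain. Anaplerotic enzymes refill its intermediates, cataplerotic enzymes draw them off, and the malate-aspartate shuttle carries reducing equivalents from glycolysis into the mitochondrial matrix, a task of weight in heart muscle. Some enzymes of amino acid and phosphoenolpyruvate metabolism in this network are also known targets of ATF4, the transcription factor of the integrated stress response, which binds a composite C/EBP-ATF element.

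Promoter windows of 300 bases (250 before and 50 after the transcription start, RefSeq, GRCm38.p6) were found for 36 of the 39 members and missing for Idh3a, Me2 and Pdp1. They were searched on both strands for the C/EBP-ATF element TGATGNAAN, the antioxidant response element core TGACNNNGC and the estrogen-related receptor element. The C/EBP-ATF letters were in 3 of 47 member windows (6.38%), against 3.95% of all 32851 windows. The members were Pck2, Got1 and Me3, and the stretches around the matches, all before the start, are shown. Whether the element acts in these genes was not tested. Letters are given 5′ to 3′ on the strand of the gene, and capitals mark the match, which in each case reads as the element on the opposite strand.
Pck2, chr14:55540122-55540210, plus strand: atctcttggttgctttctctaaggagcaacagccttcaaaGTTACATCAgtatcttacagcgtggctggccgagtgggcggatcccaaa
Got1, chr19:43524660-43524748, minus strand: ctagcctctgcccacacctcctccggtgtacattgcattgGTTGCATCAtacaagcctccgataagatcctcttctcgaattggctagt
Me3, chr7:89632743-89632817, plus strand: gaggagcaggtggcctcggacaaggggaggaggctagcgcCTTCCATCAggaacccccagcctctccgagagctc

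The match began 104 bases before the start in Pck2, 103 bases in Got1 and 35 bases in Me3. The antioxidant core was in 7 of 47 member windows (14.9%), against 12.4% of all windows, in Dlst, Idh3g, Mdh1, Me1, Mpc1, Pdhb and Sucla2. The estrogen-related receptor element was in 0 member windows and in 0.423% of all windows. A match says only that these letters are present.

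The genotype effect on the 39 genes was small except for Pck2. At labelled day 1, 5 of the 39 were higher in DKO than in control ventricles (12.8%), beside 9.81% of all genes tested. None of the 39 was lower by edgeR (1 at an unadjusted p under 0.05), beside 7.79% of all genes. The 5 were Ogdh, Suclg2, Pdk1, Pck2 and Me1, and the share is near the background. At labelled day 7, Pck2 alone was higher, 1 of 39 (2.56%), beside 0.686% of all genes. None was lower (2 at an unadjusted p under 0.05), beside 0.334% of all genes. The median log2 fold change of the members, DKO over control, was -0.04 at labelled day 7 (-0.01 over all genes) and 0.04 at labelled day 1 (-0.02 over all genes). The summed level of the 39 genes was 16705 to 19185 CPM in DKO and 18340 to 19015 CPM in control libraries labelled day 7, and 19550 to 21168 CPM in DKO and 18392 to 21724 CPM in control libraries labelled day 1. At both labelled ages the summed levels overlapped between genotypes.

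**Figure D1:**
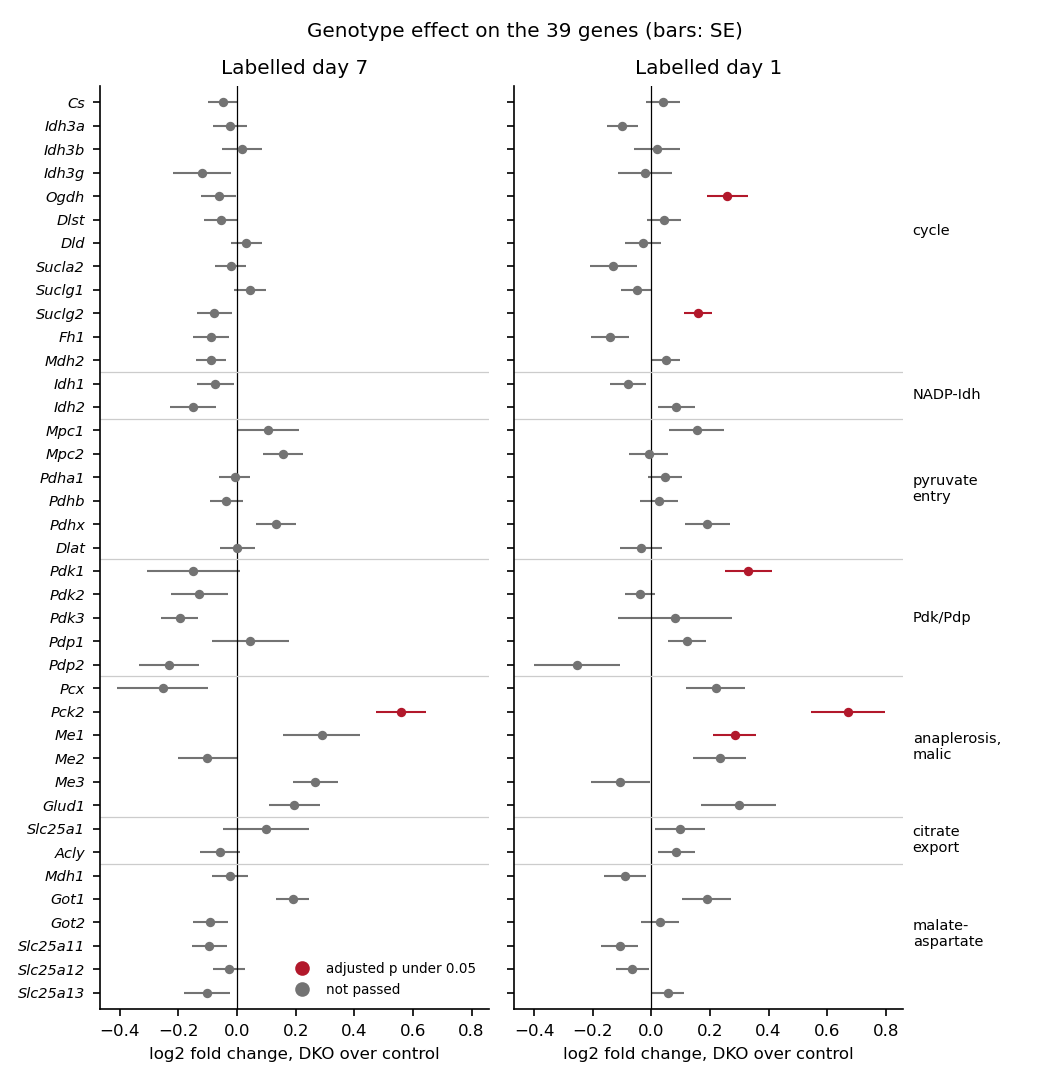
Log2 fold change of DKO over control for each of the 39 genes (points) with its standard error (bars), at labelled day 7 on the left and labelled day 1 on the right, ordered by role. Red marks an adjusted p under 0.05 in edgeR, and Pck2 stands furthest to the right in both panels at 0.56 and 0.67.

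Pck2 encodes the mitochondrial phosphoenolpyruvate carboxykinase, which draws oxaloacetate off the cycle, and is a known target of ATF4. At labelled day 7 its level was 43.8 CPM in the lowest, 46.4 in the median and 53.3 in the highest DKO library, against 26.4, 31.5 and 38.2 CPM in controls. Every DKO library lay above every control. The difference was 1.47-fold, a log2 fold change of 0.56 ± 0.09 (SE, n = 6 each; edgeR adjusted p = 0.00225). Among libraries labelled day 1, the lowest, median and highest levels were 23.2, 33.8 and 41.3 CPM in DKO and 16.8, 19.6 and 25.6 CPM in controls. The groups overlapped, although all 6 DKO libraries exceeded the control median. The log2 fold change was 0.67 ± 0.13 (SE, n = 6 each; edgeR adjusted p = 0.0018). The difference of the genotype effect between the labelled ages, day 7 minus day 1, was -0.10 ± 0.16 for Pck2 (edgeR adjusted p = 0.875). The call held under every alternative and with any single library left out, at both labelled ages, with adjusted p up to 0.0198. Of the exonic bases of Pck2, 27.3% lie within the span of other genes, and 0.7% in exons of another gene (GENCODE M21). The library kit does not mark strand, so part of the Pck2 count is uncertain. Asns, an ATF4 target picked singly from outside the module and its lists, had a median of 141 CPM in DKO and 11.96 CPM in control libraries labelled day 7. At labelled day 1 the median of Asns was 94.0 CPM in DKO and 6.97 CPM in control libraries. A part of ATF4 in the Pck2 difference was not tested.

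Pck2 belongs to the anaplerotic and cataplerotic enzymes with Pcx, Glud1 and the malic enzymes. In DKO at labelled day 1, 2 of these 6 genes were higher, beside 9.81% of all genes, with a group median log2 fold change of 0.26. In DKO at labelled day 7, 1 of 6 was higher, beside 0.686% of all genes, with a group median of 0.23. Me1, the cytosolic malic enzyme that yields NADPH, had levels of 35.2, 39.5 and 43.4 CPM (lowest, median, highest) in DKO and 29.4, 31.5 and 39.1 CPM in controls labelled day 1. The groups overlapped through 1 control library, at 39.1 CPM. The log2 fold change was 0.28 ± 0.07 (edgeR adjusted p = 0.0152), a call lost with atrial markers as a covariate. Among libraries labelled day 7, Me1 had 22.0, 29.9 and 35.8 CPM in DKO and 19.9, 24.04 and 29.8 CPM in controls, a log2 fold change of 0.29 ± 0.13 that did not pass (edgeR adjusted p = 0.335).

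The mitochondrial malic enzymes Me2 and Me3 and the other enzymes of the group did not pass in the main fits. Me2 had a log2 fold change of 0.23 at labelled day 1 (edgeR adjusted p = 0.0901). That difference passed with the length trend removed and without control library 13. At labelled day 7 the log2 fold change of Me2 was -0.10 (edgeR adjusted p = 0.702). Me3 is the NADP-dependent mitochondrial form. In ventricles labelled day 7 it had 27.2, 29.2 and 33.2 CPM in DKO and 22.4, 24.3 and 27.1 CPM in controls, so that the groups just did not overlap. The log2 fold change of Me3 was 0.27 ± 0.08, with an edgeR adjusted p of 0.12. DESeq2, an alternative test, called Me3 (adjusted p = 0.0193) and Got1 (adjusted p = 0.0288) beside Pck2 at labelled day 7. These were 3 of 39 members, where DESeq2 called 1.95% of all genes higher. In libraries labelled day 1, Me3 had 74.7, 85.4 and 90.1 CPM in DKO and 65.2, 88.4 and 110 CPM in controls, with a log2 fold change of -0.11 ± 0.10. Glud1, the glutamate dehydrogenase that makes 2-oxoglutarate, had log2 fold changes of 0.20 ± 0.09 at labelled day 7 and 0.30 ± 0.13 at labelled day 1 (edgeR adjusted p = 0.325 and 0.131). Pcx, the pyruvate carboxylase that makes oxaloacetate, had log2 fold changes of -0.25 ± 0.15 at labelled day 7 and 0.22 ± 0.10 at labelled day 1, neither past the threshold.

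**Figure D2:**
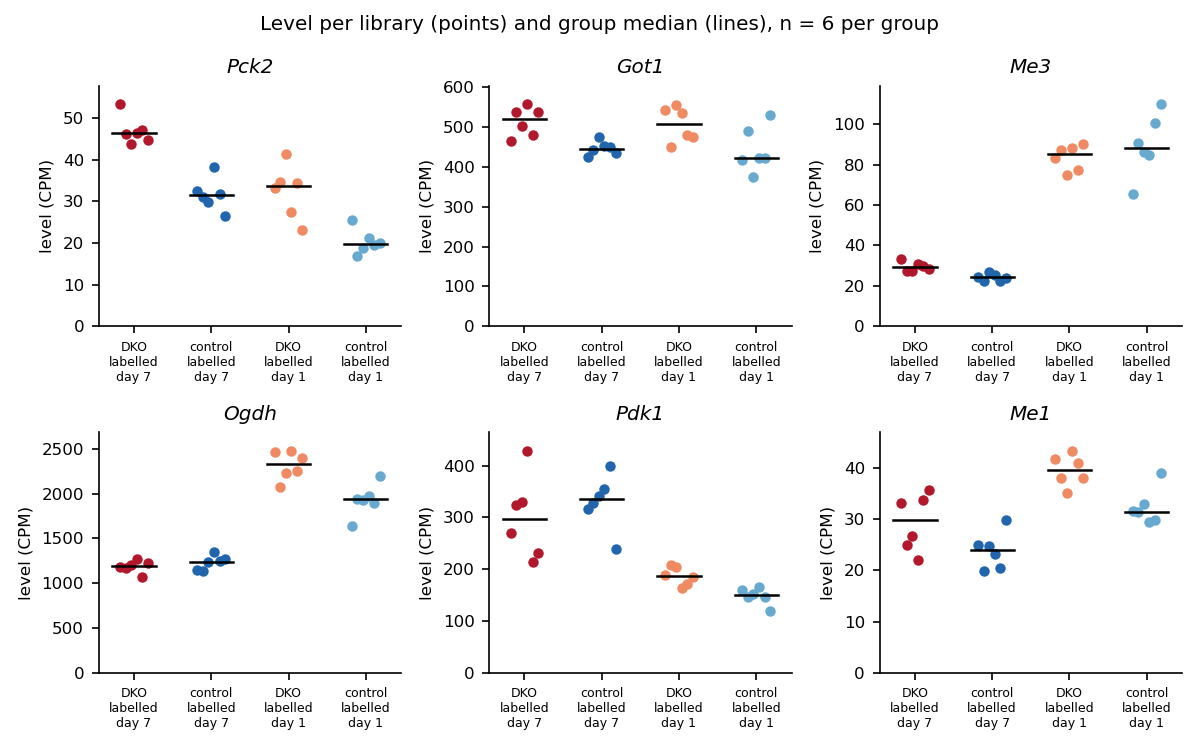
Level in CPM of 6 members in each library (points) with the group median (lines), from left to right in DKO labelled day 7, control labelled day 7, DKO labelled day 1 and control labelled day 1 (6 libraries each). Pck2 in DKO labelled day 7 lies at 43.8 to 53.3 CPM, above all controls of that label at 26.4 to 38.2 CPM. Pdk1 and Ogdh passed in the main fit at labelled day 1 with overlapping groups. The Ogdh call was lost with the atrial covariate and the Pdk1 call in the fit of all libraries.

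Among the 12 genes of the cycle proper, 2 were higher in DKO at labelled day 1 and 0 at labelled day 7, and 0 were lower at either. Over all genes tested, 9.81% were higher and 7.79% lower at labelled day 1, and 0.686% and 0.334% at labelled day 7. Ogdh encodes the first subunit of the 2-oxoglutarate dehydrogenase complex, a calcium-sensitive step of the cycle. In ventricles labelled day 1 it had 2072, 2328 and 2477 CPM in DKO and 1634, 1936 and 2203 CPM in controls. All 6 DKO libraries exceeded the control median, and 1 control lay within the DKO range. The log2 fold change was 0.26 ± 0.07 (edgeR adjusted p = 0.0179), a call likewise lost with the atrial covariate. The partner subunits Dlst, at 0.04 ± 0.06, and Dld, at -0.03 ± 0.06, did not pass. By contrast, Ogdh at labelled day 7 had 1068, 1194 and 1269 CPM in DKO and 1131, 1240 and 1345 CPM in controls, a log2 fold change of -0.06 ± 0.06. The difference of the 2 effects was -0.32 ± 0.09, which edgeR did not call (adjusted p = 0.101) and DESeq2 did (adjusted p = 0.0452).

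Suclg2 encodes the GTP-specific subunit of succinyl-CoA synthetase, and Sucla2 the ATP-specific subunit that competes for the shared partner Suclg1. Suclg2 at labelled day 1 had 146, 157 and 167 CPM in DKO and 129, 141 and 146 CPM in controls, with every DKO library above every control. The log2 fold change was 0.16 ± 0.05 (edgeR adjusted p = 0.0288), the smallest of the 5 called. It was lost without any 1 of 5 single libraries, DKO 29, 33 and 35 and control 22 and 25, and with no filter on low counts (edgeR adjusted p = 0.0647). Sucla2 at -0.13 ± 0.08 and Suclg1 at -0.05 ± 0.05 did not pass, although Sucla2 was called lower without control library 13. Suclg2 at labelled day 7 had 160, 171 and 186 CPM in DKO and 173, 178 and 194 CPM in controls, a log2 fold change of -0.08 ± 0.06. The difference between the labelled ages was -0.23 ± 0.07 (edgeR adjusted p = 0.118, DESeq2 adjusted p = 0.0351). Citrate synthase (Cs), the 3 subunits of NAD isocitrate dehydrogenase, fumarase (Fh1) and mitochondrial malate dehydrogenase (Mdh2) did not pass in the main fits. Their log2 fold changes lay between -0.14 and 0.05 at both labelled ages. Fh1 was called lower at labelled day 1 without control library 22.

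The regulators of pyruvate dehydrogenase held the fifth call. Pdk1, a kinase that inhibits the complex and a known target of hypoxia-inducible factor, had 163, 187 and 208 CPM in DKO and 119, 149 and 166 CPM in controls labelled day 1. Only the highest control reached into the DKO range. Its log2 fold change came to 0.33 ± 0.08 (edgeR adjusted p = 0.00915). The levels of Pdk1 at labelled day 7 were spread widely, at 214, 297 and 428 CPM in DKO and 238, 335 and 399 CPM in controls, with a log2 fold change of -0.15 ± 0.16. The difference between the labelled ages did not pass (-0.47 ± 0.19, edgeR adjusted p = 0.297). Pdk2, Pdk3, Pdp1 and Pdp2 did not pass at either labelled age (Pdk3 and Pdp2 did at labelled day 1 in fits that address atrial transcripts, given further on), nor did any of the 6 genes of pyruvate entry, whose log2 fold changes lay between -0.04 and 0.16 at labelled day 7 and between -0.03 and 0.19 at labelled day 1.

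Of the 6 genes of the malate-aspartate shuttle, 0 passed in either genotype comparison in the main edgeR fits. DESeq2 called Got1 at labelled day 7 (adjusted p = 0.0288), and edgeR called Got1 higher at labelled day 1 without control library 62. Got1 and Got2, the cytosolic and mitochondrial aspartate aminotransferases, differed from each other within libraries. Got1 had 465, 520 and 557 CPM in DKO and 424, 446 and 474 CPM in controls labelled day 7 (log2 fold change 0.19 ± 0.06, edgeR adjusted p = 0.138), and 451, 507 and 556 CPM in DKO and 375, 422 and 531 CPM in controls labelled day 1 (0.19 ± 0.08, edgeR adjusted p = 0.137). Got2 had log2 fold changes of -0.09 ± 0.06 at labelled day 7 and 0.03 ± 0.07 at labelled day 1. The log2 ratio of Got2 to Got1 counts, in which scaling cancels, was 0.59 to 0.84 in DKO labelled day 7, against 0.89 to 1.10 in controls of that label, without overlap. Of 20 genotype comparisons of 10 such ratios, this was the 1 without overlap. At labelled day 1 it was 0.82 to 1.04 in DKO and 1.02 to 1.14 in controls, with overlap. The carriers Slc25a11, Slc25a12 and Slc25a13 and the cytosolic dehydrogenase Mdh1 had log2 fold changes between -0.11 and 0.06.

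**Figure D3:**
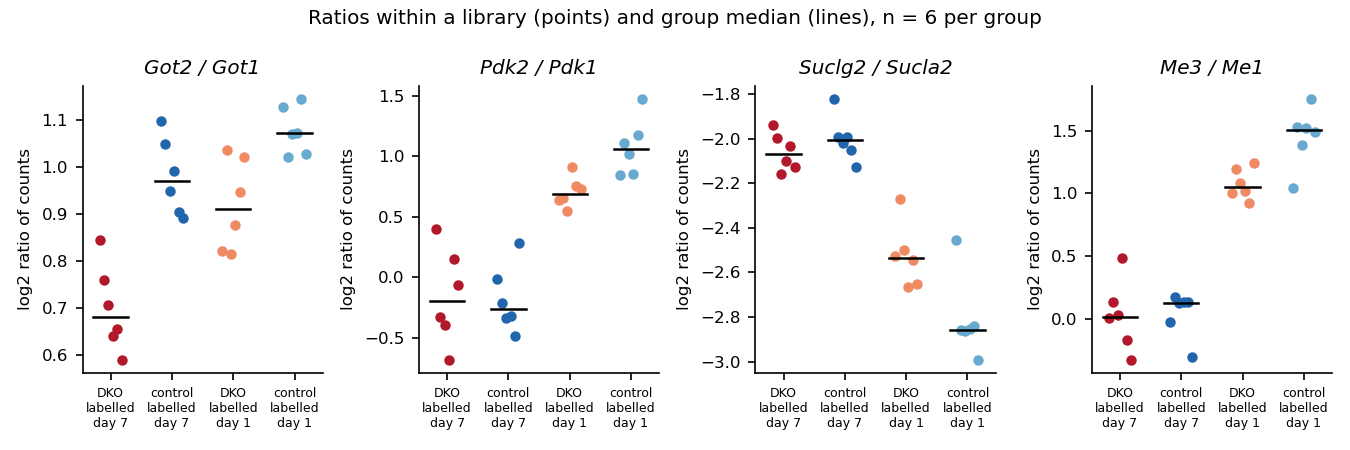
Log2 ratio of the counts of paired genes within each library (points) with the group median (lines), in the order DKO labelled day 7, control labelled day 7, DKO labelled day 1, control labelled day 1. The Got2/Got1 ratio in DKO labelled day 7 lies wholly below that of its controls, and the Pdk2/Pdk1, Suclg2/Sucla2 and Me3/Me1 ratios part by labelled age in both genotypes.

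Atrial transcripts moved with the genotype at labelled day 1. Of the 6 atrial markers, 3 were lower in DKO, beside 7.79% of all genes. Myl7, an atrial light chain, had 0.564 to 17.3 CPM in DKO and 1.34 to 304 CPM in control libraries of that label. Kcnj3, another of these markers, had 8.85 to 17.1 CPM in DKO and 27.0 to 46.7 CPM in controls, without overlap. A covariate built from these markers partly follows the genotype. Atrial tissue and genotype therefore cannot be fully told apart in that fit. With the atrial markers as a covariate, 2 members were higher and 1 lower, beside 9.2% and 7.13% of all genes. In that fit Pck2 (log2 fold change 0.83, edgeR adjusted p = 0.0114) and Pdk1 (0.40, adjusted p = 0.0378) still passed. Ogdh (0.18, edgeR adjusted p = 0.263), Suclg2 (0.21, adjusted p = 0.0559) and Me1 (0.16, adjusted p = 0.342) did not, and Pdp2 was called lower (-0.61, adjusted p = 0.0286). Leaving out the control libraries over 50 CPM of Myl7, an alternative chosen after seeing the data that left 2 controls, kept Pck2 (0.75), Pdk1 (0.46) and Suclg2 (0.22) past the threshold and lost Ogdh and Me1. It newly called Pdk3 (0.54, edgeR adjusted p = 0.0318) and Acly (0.24, adjusted p = 0.0455) higher and Pdp2 lower (-0.57, adjusted p = 0.0108), which made 5 higher and 1 lower, beside 10% and 6.79% of all genes. Some other muscle markers also differed by genotype at labelled day 1. Of 9 ventricular markers, Ttn, Ryr2 and Tnnt2 were lower in DKO, beside 7.79% of all genes. Mybpc3 was higher, 1 of 9 (11.1%), near the 9.81% of all genes. Of 4 skeletal muscle markers tested, 2 were higher in DKO, beside the same 9.81%. Myh1 had 15.3 to 24.4 CPM in DKO and 4.75 to 7.35 CPM in controls. Myh4 had 10.2 to 18.9 CPM in DKO and 3.67 to 5.18 CPM in controls. Acta1 was at 0 counts in all 24 libraries and could not be checked. The summed skeletal markers overlapped, at 1423 to 1673 CPM in DKO and 1240 to 1668 CPM in controls, but the sum was mostly Ckm. Ckm alone had 1386 to 1642 CPM in DKO and 1230 to 1655 CPM in controls, so the overlap says nothing about Myh1 and Myh4. The part of these muscle markers in the 5 calls was not tested. In the fit over all 24 libraries, Pdk1 (edgeR adjusted p = 0.0903) and Me1 (adjusted p = 0.0702) did not pass.

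None of the 39 genes passed the test of a difference in the genotype effect between the labelled ages. By edgeR 0 were higher and 0 lower (1 and 7 at an unadjusted p under 0.05), beside 0.311% and 0.766% of all genes. DESeq2 called 0 higher and 2 lower, Ogdh and Suclg2. Its share over all genes is not given for this difference, so these 2 calls cannot be set against a background.

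Of a list of 37 other genes of the pathway, 34 could be tested, as Pck1 and Mdh1b were under the filter and Mpc1l had no row. At labelled day 1, 4 were higher in DKO (11.8%, near the 9.81% of all genes) and 0 lower (7.79% of all genes). Glul, glutamine synthetase, had 121, 125 and 163 CPM in DKO and 58.1, 61.6 and 69.4 CPM in controls, a log2 fold change of 1.07 ± 0.08 (edgeR adjusted p = 2.84e-07). Ogdhl, a relative of Ogdh at 2.09 to 3.34 CPM in DKO and 1.23 to 1.76 CPM in control libraries of that label, had a log2 fold change of 0.82 ± 0.15. Pdk4, the starvation-responsive kinase, had a log2 fold change of 0.70 ± 0.17, and Slc25a22, a mitochondrial glutamate carrier, one of 0.31 ± 0.09. At labelled day 7 only Gpt2 was higher (2.94%, beside 0.686% of all genes), and 0 were lower (0.334% of all genes). Gpt2, the mitochondrial alanine aminotransferase that links pyruvate to 2-oxoglutarate and a known ATF4 target, had 21.7, 26.9 and 30.8 CPM in DKO and 9.91, 13.1 and 14.6 CPM in controls labelled day 7. With no overlap, its log2 fold change was 1.07 ± 0.11 (edgeR adjusted p = 3.62e-05). At labelled day 1 it was 0.21 ± 0.12 and did not pass, and the difference between the labelled ages was 0.86 ± 0.16 (edgeR adjusted p = 0.00918).

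The labelled age parted the 39 genes far more than the genotype. In DKO, 10 were higher at labelled day 7 than at labelled day 1, beside 27.3% of all genes, and 21 were lower (53.8%), beside 25.3% of all genes. In controls, 10 were higher, beside 27.4% of all genes, and 17 were lower (43.6%), beside 25.6% of all genes. The median log2 fold change of the members, labelled day 7 over day 1, was -0.17 in DKO (0.02 over all genes) and -0.11 in controls (0.01 over all genes). The 2 comparisons use different libraries but share the labels of age, the depth difference and the Y-linked split. In controls, all 5 fibroblast, all 5 endothelial and all 5 macrophage markers were lower at labelled day 7, and in this bulk tissue fewer cells of a type and less RNA per cell cannot be told apart. The summed fibroblast markers were 1896 to 3481 CPM in controls labelled day 7 and 4339 to 5539 CPM in controls labelled day 1. In DKO, 5 fibroblast, 4 endothelial and 4 macrophage markers were lower. Of 6 atrial markers, 5 were higher and 1 lower at labelled day 7 in DKO, against 2 higher and 1 lower in controls. They summed to 202 to 1516 CPM in DKO labelled day 7 and 36.6 to 60.5 CPM in DKO labelled day 1. Of 4 skeletal muscle markers tested, 3 were lower and 1 higher in DKO, and 1 was lower and 1 higher in controls. The part of cell makeup, atrial and skeletal muscle included, in the labelled age results was not tested. Among libraries with Y-linked transcripts only (2 against 6 in each genotype), 4 members were higher and 18 lower in DKO, beside 18.5% and 20.2% of all genes in that smaller fit. In controls 9 were higher and 13 lower, beside 18% and 19.1% of all genes.

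**Figure D4:**
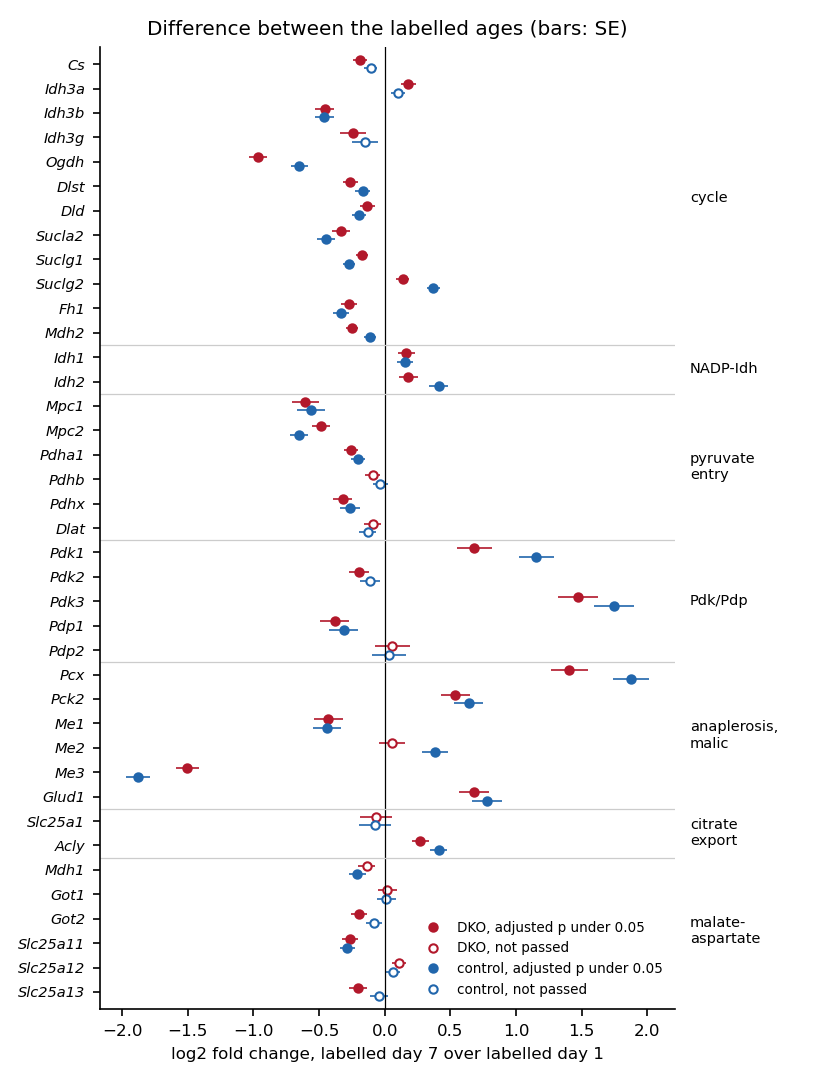
Log2 fold change, labelled day 7 over labelled day 1, of the 39 genes in DKO (red) and control (blue) libraries with standard errors (bars), ordered by role. Filled points passed an adjusted p under 0.05 in edgeR. Pcx, Pdk3 and Pdk1 lie to the right and Me3 and Ogdh to the left in both genotypes, although the Pdk1 shift in DKO did not pass among libraries with Y-linked transcripts.

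By role, 8 of 12 genes of the cycle were lower at labelled day 7 in controls, beside 25.6% of all genes. Only 1, Suclg2, was higher, beside 27.4% of all genes. The largest shift in the cycle was that of Ogdh, at 1131 to 1345 CPM in controls labelled day 7 and 1634 to 2203 CPM in controls labelled day 1. Its log2 fold change was -0.97 ± 0.06 in DKO and -0.65 ± 0.06 in controls, whereas its partner Dlst had -0.26 ± 0.06 in DKO and -0.17 ± 0.06 in controls, the control call being lost among libraries with Y-linked transcripts. The 2 cycle-linked NADP isocitrate dehydrogenases were both higher, Idh2 (mitochondrial) by 0.41 ± 0.07 and Idh1 (cytosolic) by 0.16 ± 0.06 on the log2 scale in controls. The Idh1 call was lost in several alternatives, among them the fit of libraries with Y-linked transcripts, where Idh2 in controls was higher by 0.27 (edgeR adjusted p = 0.0231). Suclg2 and Sucla2 moved apart: the log2 ratio of Suclg2 to Sucla2 counts was -2.13 to -1.82 in controls labelled day 7, against -2.99 to -2.46 in controls labelled day 1.

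Pyruvate handling moved in both directions. Both carrier subunits were lower, Mpc2 with 318, 380 and 393 CPM in controls labelled day 7 and 509, 592 and 651 CPM in controls labelled day 1 (log2 fold change -0.65 ± 0.07), and Mpc1 by a log2 fold change of -0.56 ± 0.11. Of the exonic bases of Mpc1, 67.1% lie within the span of another gene and 23.1% in exons of another gene, so its counts are uncertain. For Pdha1, a subunit of pyruvate dehydrogenase, these shares are 30.6% and 16.1%, so its counts are uncertain too. The kinases Pdk3 and Pdk1 were higher in controls. Pdk3 had 76.1, 86.6 and 91.4 CPM in controls labelled day 7 and 16.7, 22.4 and 42.5 CPM in controls labelled day 1, a log2 fold change of 1.74 ± 0.15 (edgeR adjusted p = 1.17e-09). Pdk1 had 238, 335 and 399 CPM in controls labelled day 7 and 119, 149 and 166 CPM in controls labelled day 1 (1.15 ± 0.13, edgeR adjusted p = 1.18e-07). In DKO the log2 fold change of Pdk1 was 0.68 ± 0.13, and among libraries with Y-linked transcripts it was 0.23, which did not pass (edgeR adjusted p = 0.247), against 1.08 in controls. Pdk2 did not pass in controls (-0.11 ± 0.08), and its log2 ratio to Pdk1 was -0.68 to 0.40 in DKO labelled day 7 against 0.55 to 0.91 in DKO labelled day 1. In controls this ratio was -0.48 to 0.28 at labelled day 7 and 0.84 to 1.47 at labelled day 1, with no overlap in either genotype.

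The anaplerotic group held the widest changes, with 4 of 6 genes higher and 2 lower in controls, beside 27.4% and 25.6% of all genes. Pcx had 18.8, 27.8 and 32.0 CPM in controls labelled day 7 and 6.39, 7.21 and 8.46 CPM in controls labelled day 1, a 3.67-fold difference (log2 fold change 1.88 ± 0.14, edgeR adjusted p = 5.73e-11). In DKO the log2 fold change of Pcx was 1.41 ± 0.14. Me3 went the other way, with 22.4, 24.3 and 27.1 CPM in controls labelled day 7 and 65.2, 88.4 and 110 CPM in controls labelled day 1 (-1.88 ± 0.09, edgeR adjusted p = 4.04e-14). In DKO the log2 fold change of Me3 was -1.50 ± 0.09. Glud1 was higher in controls labelled day 7 by 0.78 ± 0.11 on the log2 scale, and Pck2 by 0.64 ± 0.11. The remaining 18 called members in controls had log2 fold changes between -0.46 and 0.41. In the malate-aspartate shuttle 2 of 6 genes, Mdh1 and Slc25a11, were lower in controls and 0 higher, beside 25.6% and 27.4% of all genes.

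Of the 34 other pathway genes tested, 9 were higher (26.5%, beside 27.4% of all genes) and 14 lower (41.2%, beside 25.6% of all genes) at labelled day 7 in controls. Slc16a3, a lactate exporter, was higher by 2.19 on the log2 scale, and Ldha, the lactate dehydrogenase subunit of glycolytic tissue, by 0.56. Gpd1 had a log2 fold change of -2.03, with 82.1% of its exonic bases within the span of other genes and 13.0% in exons of another gene. Gpt2 had a log2 fold change of -1.61. These genes were picked from the list after their values were seen.

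Levels per kilobase of exon differed widely between the members. In controls labelled day 7, the leading genes were Idh2 (median 1039 CPM per kb), Mdh1 (823) and Mdh2 (491). In controls labelled day 1, the order was Mdh1 (937), Idh2 (788) and Mdh2 (534). The ranges of Mdh1 and Idh2 overlapped at labelled day 1 and did not at labelled day 7, while Mdh2 stood apart from both at each label. At the low end at labelled day 7 stood Me3 at 1.66 CPM per kb, Pdp2 at 3.32 and Me2 at 3.64, and at labelled day 1 Pcx at 1.52, Pck2 at 2.52 and Me2 at 2.71. Exonic lengths pool all annotated transcripts, so genes with long rarely used exons are understated.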

How the data were processed

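RNA from left ventricle was sequenced in 24 libraries, with no library name shared between groups and thus no pairing. The authors deposited raw counts of reads per gene (whole numbers, not normalized). The submitters' processing notes list bcl2fastq, STAR 2.4.2a and the build GRCm39. The counting tool and annotation are not given in the sources used here. Genes passing filterByExpr (minimum count 10, over 4 groups) were scaled by TMM and tested with edgeR 4.0.16 (robust quasi-likelihood F-test, R 4.3.3), with Benjamini-Hochberg adjustment over all 17352 genes and a threshold of 0.05. Genotype was fitted within each labelled age, and labelled age and the difference of effects over all 24 libraries. SE was derived from each fold change and its F statistic and is approximate. Levels are CPM after TMM. The scripts were tested on simulated data. GENCODE M21 (GRCm38) gave exonic lengths and overlaps only. Y-linked transcripts were called present at over 10 CPM of Eif2s3y.

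Alternatives were DESeq2 1.42.0, limma-voom (limma 3.58.1), RLE scaling, no filter, protein-coding genes, a length trend, 1 fit of all libraries, atrial or Y-linked covariates and leaving out each library. Members past the threshold for genotype were named in full. For labelled age, those past the threshold in controls with an absolute log2 fold change over 0.5 were named. The members and lists were chosen with earlier results of these data known. The p-values and SE hold both counting error and the spread between libraries, and their parts were not compared.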

Additional observations from a re-analysis of the deposited data

Results flagged for a closer look

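Of 156 gene and group sets of 6 libraries examined, 7 held a library far from the other 5 by Dixon's criterion at the 95% level. Chance gives about 1 in 20 such sets, so the number is no more than that. In DKO labelled day 7, library m1026 had Pck2 at 53.3 CPM (next 47.0) and Pdk2 at 357 CPM (next 267). The Pck2 call at labelled day 7 held without it. In controls labelled day 7, library m1022 had Cs at 834 CPM (next 789), library m1088 had Mpc2 at 318 CPM (next 372), and library m1101 had Acly at 106 CPM (next 114). In DKO labelled day 1, library 33 had Mpc2 at 507 CPM (next 586). In controls labelled day 1, library 62 had Me1 at 39.1 CPM (next 33.0). By edgeR, no member's genotype effect differed between the labelled ages past the threshold. DESeq2 called Ogdh and Suclg2, without a share over all genes to set them against.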

How the results depend on the processing

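At labelled day 1, the 5 members higher in DKO became 3 in the fit of all libraries, 2 with the atrial covariate and 4 to 7 with single libraries left out. Newly called higher with a library left out were Got1 and Glud1 without control 62, Pdhx without DKO 33 and Me2 without control 13. Me2 also joined the 5 with the length trend removed, and Suclg2 was lost with no filter on low counts. The 0 lower became 1 with the atrial covariate (Pdp2) and 1 without the controls over 50 CPM of Myl7, an alternative chosen after seeing the data. With single libraries left out, 0 to 2 were lower (2 without control 13, Sucla2 and Pdp2, and 1 without control 22, Fh1). At labelled day 7, the 1 higher became 3 with DESeq2 and 2 with the length trend removed (Me3 joined), and stayed at 1 with each library left out. For the difference of effects, DESeq2 gave 2 lower, with no share over all genes beside them. Leaving out libraries gave 0 to 1 higher (Me3, without control 13) and 0 to 1 lower (Ogdh, without control 62). With labelled age in DKO, the 10 higher became 4 in libraries with Y-linked transcripts, where Idh2 changed sign (-0.0073, adjusted p = 0.957 by edgeR), and 7 to 10 with single libraries left out. Fewer libraries enter that fit. In controls, 9 to 10 were higher and 15 to 18 lower with single libraries left out, and in DKO 17 to 22 were lower. Of 5187 values of single members under the alternatives, 4907 kept their sign and side of the threshold, 35 newly passed and 103 no longer passed with the same sign. Another 141 changed sign and passed in neither fit, and 1, Idh2 above, changed sign after passing. The cause of these changes was not tested. Labelled age and sequencing depth cannot be told apart, since depth differed between the labels.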
